A study of Arabidopsis thaliana with 4 samples.

Results

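The genes described here are AT1G48100, of the polygalacturonase family, and AT3G17130, AT5G62340 and AT5G62360, of the family of invertase and pectin methylesterase inhibitors. Expression was read as log2 values from MAS5, an algorithm that condenses the probes of a probe set into 1 value. The genes are 4 of the 13355 genes with a single-gene probe set, and all 4 were among the 7204 genes whose mean value passed the filter on low values. Their values ran from 7.11 upwards on every array, above the filter level of 6.46 on the log2 scale. They were chosen from the difference of each sfr6 mutant from Col-0 in these arrays, so those differences are given as a description, with no test. The name of the set, genes changed in sfr6, holds in both alleles for 3 of them. AT5G62340 differed from Col-0 in opposite directions in the alleles.

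RNA came from Arabidopsis thaliana seedlings aged 7 days, grown at 20 °C and then kept at 5 °C for 6 h in the light phase. The groups were sfr6-3 (WiscDsLox504A08), 1 array, sfr6-2 (SALK_048091), 1 array, and Col-0, 2 arrays, of which 1 was treated beside sfr6-3 and 1 beside sfr6-2. Each mutant allele is thus represented by 1 line, named by its insertion stock, and SFR6 had 0 single-gene probe sets, so that the genotype could not be checked on the gene itself. All arrays, Col-0 included, are of cold-treated plants, and a lower level before the cold cannot be told apart from a weaker response to it. In whole seedlings, fewer cells of a type and less RNA per cell cannot be told apart either.

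Pectin is the gel-forming polysaccharide of the plant cell wall, and its main chain is homogalacturonan. It is secreted with most of its acid groups methyl-esterified. Pectin methylesterases remove the methyl groups, after which calcium can link the chains and polygalacturonases and pectate lyases can cut them. Pectin methylesterase inhibitors bind those esterases and block them, while other proteins of the same family inhibit invertases, enzymes that split sucrose, and the family name does not tell which of these a gene does. The SFR6 protein is part of Mediator, a complex linking transcription factors to RNA polymerase II, and sfr6 plants are known for freezing sensitivity after cold treatment.

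The arrays all had the same trimmed mean of 500 on the linear scale, and among genes past the filter the median log2 value lay between 8.49 and 8.58. Green tissue was present on every array, with 3 of 13 listed shoot markers measured, their values between 12.64 and 14.95. Their log2 values summed to 41.35 in sfr6-3 and 43.62 in sfr6-2, against 42.50 and 43.82 in Col-0. From its own Col-0, LHCB4.2 differed by -0.98 in sfr6-3 and -0.27 in sfr6-2. In the same order RCA differed by -0.10 and 0.05, and LHCB4.1 by -0.09 and 0.01. Of the root list, 1 of 10 was measured, the root-hair expansin gene EXPA7, at 6.33 to 7.92. Of the pollen list, which matters because many pectin enzymes are pollen proteins, 4 of 9 were measured, all between 0.06 and 4.99 and none past the filter. Of the guard cell list, 2 of 7 were measured, and of the seed list 0 of 10. The log2 values of the guard cell markers summed to 17.42 in sfr6-3 and 18.34 in sfr6-2, against 18.48 and 18.71 in Col-0. The part of these cell types in the results was not tested.

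**Figure D1:**
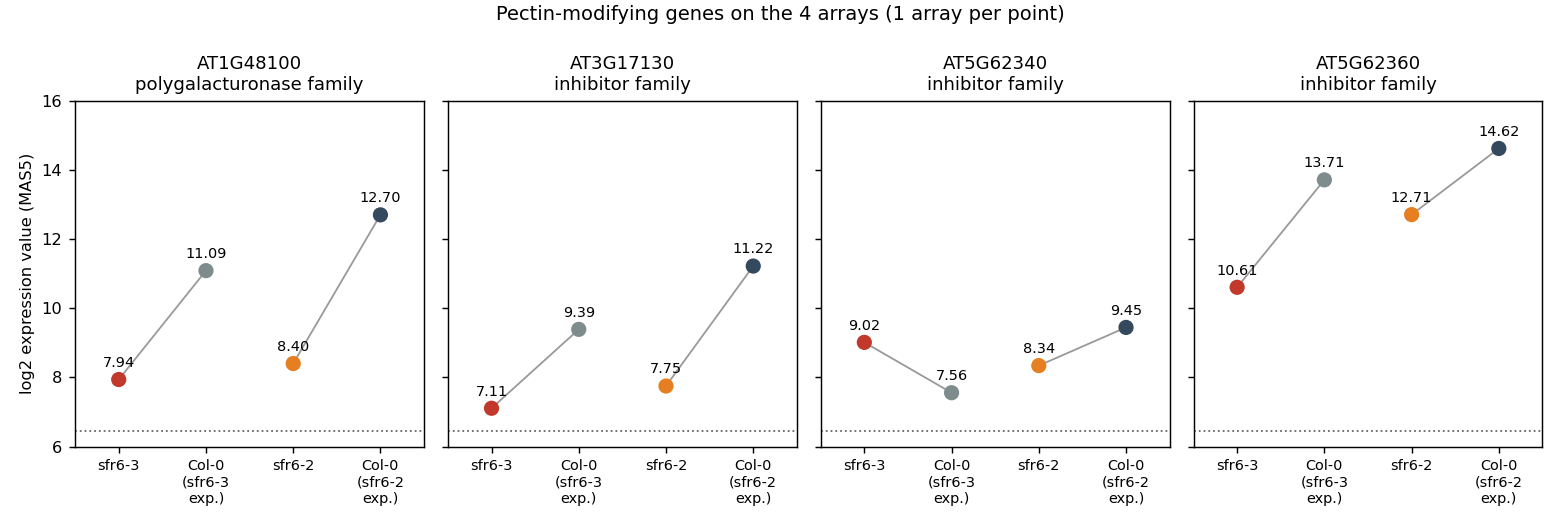
Log2 expression value of each gene on the 4 arrays, 1 point per array, with a line joining each mutant to its own Col-0 and a dotted line at the filter level of 6.46. Both mutants lie below both Col-0 arrays for AT1G48100, AT3G17130 and AT5G62360, while for AT5G62340 the lines slope in opposite directions.

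AT1G48100, a gene of the family that cuts de-esterified homogalacturonan, was the lowest of the 4 genes relative to Col-0. Its log2 value was 7.94 in sfr6-3 and 8.40 in sfr6-2, against 11.09 in the Col-0 seedlings of the sfr6-3 experiment and 12.70 in those of the sfr6-2 experiment. Both mutants were low and both Col-0 arrays high, with no overlap. The level was 8.87-fold lower in sfr6-3 and 19.7-fold lower in sfr6-2, each against its own Col-0. The mean difference was -3.72 ± 0.81 on the log2 scale (SD of the 2 alleles), the second lowest of the 7204 genes. The mutant arrays lay 0.46 apart and the Col-0 arrays 1.61 apart.

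AT3G17130, of the inhibitor family, had the pattern nearest to that of AT1G48100 within the set. It read 7.11 in sfr6-3 and 7.75 in sfr6-2, against 9.39 in Col-0 of the sfr6-3 experiment and 11.22 in Col-0 of the sfr6-2 experiment. The groups did not overlap, and again the mutants were close to each other and the Col-0 arrays far apart. The level was 4.86-fold lower in sfr6-3 and 11.1-fold lower in sfr6-2, with a mean difference of -2.88 ± 0.84 (SD of the 2 alleles).

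AT5G62360, another gene of the inhibitor family, was lower in both mutants, and here the alleles stood in the other order. It read 10.61 in sfr6-3 and 12.71 in sfr6-2, against 13.71 in Col-0 of the sfr6-3 experiment and 14.62 in Col-0 of the sfr6-2 experiment. All values were far above the filter level and the groups did not overlap. The level was 8.61-fold lower in sfr6-3 and 3.77-fold lower in sfr6-2, with a mean difference of -2.51 ± 0.84 (SD of the 2 alleles). The mutants differed from each other by 2.10, more than the Col-0 arrays did, at 0.91. Without the sfr6-3 array what is left is the sfr6-2 difference, -1.91 from its own Col-0 and -1.46 from the mean of both Col-0 arrays.

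AT5G62340, also of the inhibitor family, did not differ from Col-0 in a single direction. It read 9.02 in sfr6-3 and 8.34 in sfr6-2, against 7.56 in Col-0 of the sfr6-3 experiment and 9.45 in Col-0 of the sfr6-2 experiment. Both mutant values lay between the Col-0 values. The level was 2.74-fold higher in sfr6-3 and 2.15-fold lower in sfr6-2, each against its own Col-0, and the mean difference of 0.18 ± 1.81 (SD of the 2 alleles) lay far inside the spread of the alleles. Set against the wild type of the other experiment, the signs turned, to -0.43 in sfr6-3 and 0.78 in sfr6-2. Between the mutants, sfr6-2 minus sfr6-3 was -0.67, and between the Col-0 arrays, in the same order of experiments, the difference was 1.89.

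Set beside all genes, 3 of the 4 were at least 2-fold lower in both experiments, against 1.60% of the 7204 genes, and 0 were at least 2-fold higher in both, against 0.292%. In sfr6-3 alone 3 of 4 were at least 2-fold lower, against 3.85% of genes, and in sfr6-2 all 4, against 3.58%. The same 3 genes had both mutant arrays below both Col-0 arrays, against 11.6% of genes, while 0 had both above, against 24.8%. The fourth, AT5G62340, was 1 of 3 genes, 0.0416% of those past the filter, that were at least 2-fold higher in sfr6-3 and at least 2-fold lower in sfr6-2. The opposite pattern was seen in 0 of the 4 and in 0.0555% of genes. The choice of the genes used these contrasts, so nothing is read from these shares. The difference in sfr6-2 minus that in sfr6-3 was -1.15 for AT1G48100, -1.19 for AT3G17130, 1.19 for AT5G62360 and -2.56 for AT5G62340. Over all genes the middle 98% of this quantity ran from -1.56 to 1.48. With 1 array per line in each experiment, a difference between the alleles could not be tested for any gene.

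**Figure D2:**
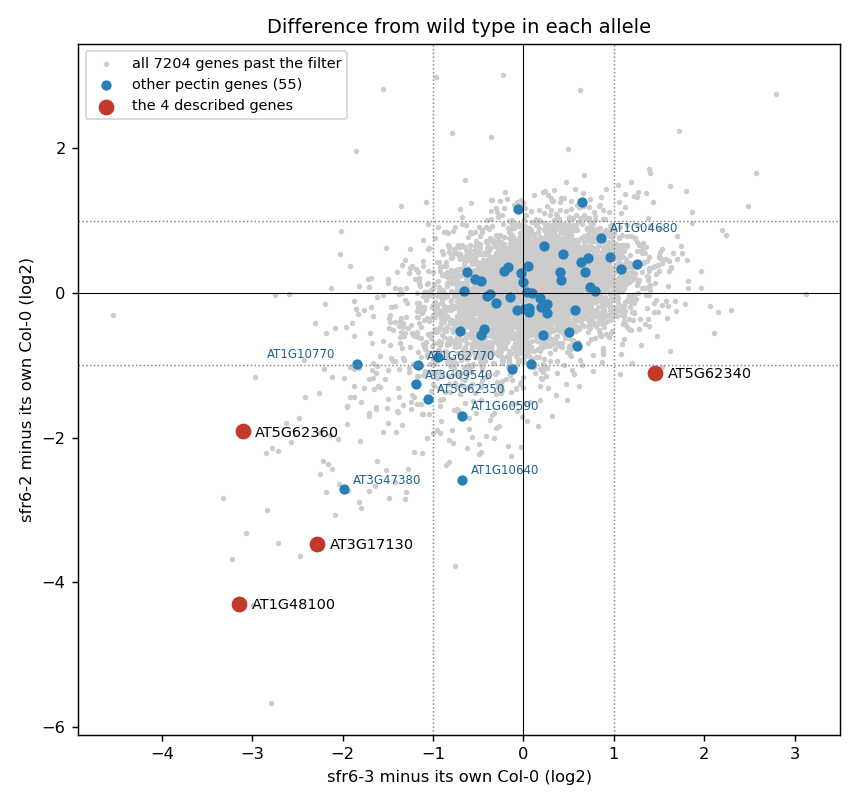
Log2 difference of sfr6-3 (horizontal) and of sfr6-2 (vertical), each from its own Col-0, with grey points for all 7204 genes past the filter, blue points for the 55 other pectin genes and red points for the 4 described genes. Dotted lines mark 2-fold, blue names mark genes that passed limma, and AT5G62340 is the only pectin gene past both of these lines at the lower right.

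The wild-type arrays differed for these genes too. The log2 value in Col-0 of the sfr6-2 experiment was above that in Col-0 of the sfr6-3 experiment by 1.61 for AT1G48100, 1.83 for AT3G17130, 1.89 for AT5G62340 and 0.91 for AT5G62360. For 3 of the 4 this was at least 2-fold, as for 4.71% of all genes, and the median gene moved by 0.06. The mutant arrays did not repeat that step for each gene: sfr6-2 minus sfr6-3 was 0.46, 0.64, -0.67 and 2.10 in the same order, and only AT5G62360 passed 2-fold, as did 3.50% of all genes. These gaps share their arrays with the differences used to choose the genes. Experiment and allele cannot be told apart in the mutants, since each allele was in 1 experiment.

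**Figure D3:**
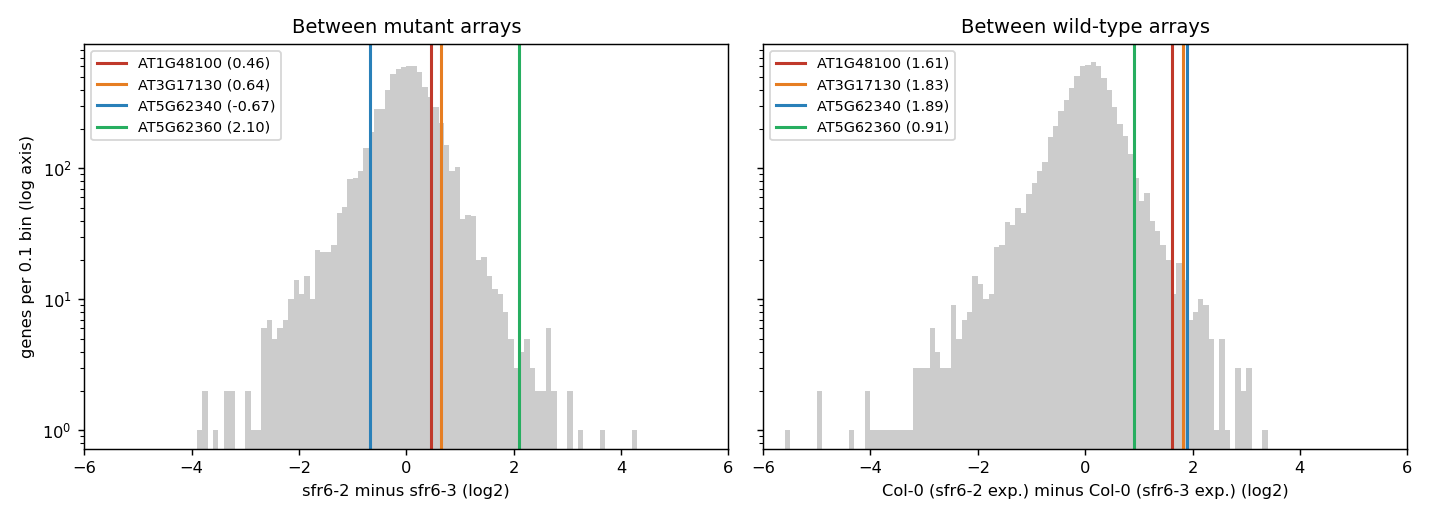
Distribution over the 7204 genes of the log2 difference between the mutant arrays (left) and between the Col-0 arrays (right), as genes per bin of width 0.1 on a log axis, with a coloured line for each described gene. The Col-0 lines all lie right of 0, from 0.91 to 1.89, and the mutant lines spread from -0.67 to 2.10.

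AT5G62340 and AT5G62360 lie on chromosome 5 with 1 other protein-coding gene, AT5G62350, between them in the gene order of the TAIR10.1 assembly, and AT5G62350 is on the inhibitor list as well. It was not used to choose the set, so it was tested, with limma fitted to all 7204 genes with experiment as a block and a call at an adjusted p under 0.05. AT5G62350 read 12.77 in sfr6-3 and 12.81 in sfr6-2, against 13.83 in Col-0 of the sfr6-3 experiment and 14.27 in Col-0 of the sfr6-2 experiment. The groups did not overlap, and the gene fell by 1.26 in log2 units (SE 0.19, limma adjusted p = 0.000329). The call ended when genes were not filtered (adjusted p = 0.0806). The 3 adjacent genes thus had 3 patterns: AT5G62360 with the larger difference in sfr6-3, AT5G62350 at -1.06 in sfr6-3 and -1.46 in sfr6-2, and AT5G62340 with opposite signs.

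**Figure D4:**
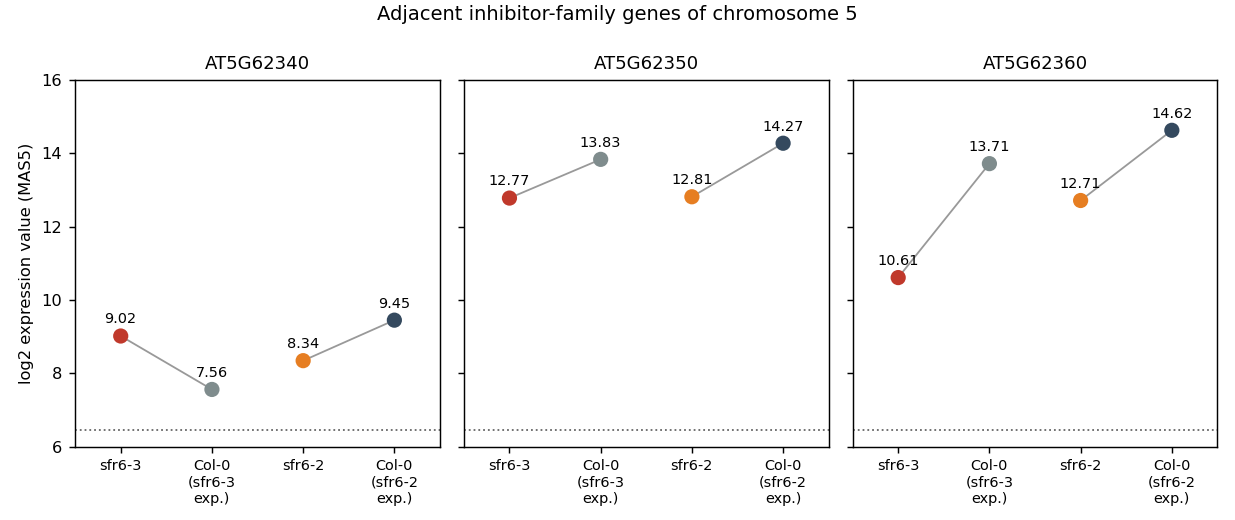
Log2 expression value on the 4 arrays, 1 point per array, of the adjacent genes AT5G62340, AT5G62350 and AT5G62360, with lines joining each mutant to its own Col-0 and a dotted line at the filter level. Mutants lie below Col-0 in both experiments for AT5G62350 and AT5G62360, and in 1 of the 2 for AT5G62340.

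Of the other direct neighbours 1 passed the filter. AT5G62330, on the other side of AT5G62340, averaged 3.58 over the arrays, AT3G17140, beside AT3G17130 and on the inhibitor list, averaged 2.29, and AT1G48095, beside AT1G48100, averaged 4.01, all under the filter level. AT3G17120, the other neighbour of AT3G17130, stood at a combined difference of 0.08 (SE 0.28) and did not pass limma (adjusted p = 0.92), and this value turned below 0 under all 3 other normalizations. ECT7, beside AT1G48100, and AT5G62370, beside AT5G62360, had no single-gene probe set. Probe sequences were not used here, so that cross-hybridisation between family members was not tested.

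The rest of the inhibitor family held genes called lower and none called higher. Of 79 listed genes 39 had a probe set and 14 passed the filter, the 3 described genes among them. Of the other 11, limma called 4 lower and 0 higher, against 3.40% of all genes called lower and 1.30% called higher, and 7 did not pass. Of the 4 calls, 1 is AT3G47380, whose mutant values were both under the filter level, so that it entered the test through its Col-0 values. The other 3 were not of this kind. The median combined difference of the 11 was -0.15, against 0.10 over all genes. The median was -0.08 in sfr6-3 and -0.59 in sfr6-2, where all genes stood at 0.11 and 0.08. A list this short gives no more than these counts.

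AT3G47380 had the lowest combined difference of those 4. It read 5.67 in sfr6-3 and 5.30 in sfr6-2, against 7.66 in Col-0 of the sfr6-3 experiment and 8.01 in Col-0 of the sfr6-2 experiment. Since it passed the filter through its Col-0 values, its difference is given without a test, as -2.35, or -1.38 after dim values had been set to the filter level.

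AT1G10770 read 6.35 in sfr6-3 and 8.06 in sfr6-2, against 8.20 in Col-0 of the sfr6-3 experiment and 9.04 in Col-0 of the sfr6-2 experiment. It fell by 1.41 (SE 0.28, limma adjusted p = 0.00374), with the mutants well apart from each other. The sfr6-3 value of AT1G10770 lay under the filter level of 6.46, and with dim values set to that level its combined difference was -1.36. Within experiments the difference was -1.84 in sfr6-3 and -0.98 in sfr6-2, and from the mean of both Col-0 arrays it was -2.27 in sfr6-3 and -0.56 in sfr6-2. AT1G62770 read 6.85 in sfr6-3 and 7.32 in sfr6-2, against 8.02 in Col-0 of the sfr6-3 experiment and 8.32 in Col-0 of the sfr6-2 experiment, and fell by 1.08 (SE 0.27, limma adjusted p = 0.0265). The call of AT1G62770 ended after median centring (adjusted p = 0.0613), and both calls ended without the filter (0.0741 for AT1G10770 and 0.156 for AT1G62770). For both genes the mutants lay below both Col-0 arrays. The fourth gene was AT5G62350.

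Among the inhibitor genes that did not pass, AT5G20740 had the highest combined difference, at 0.83 (limma adjusted p = 0.069), followed by AT5G38610 at 0.55, and AT1G23205 was the lowest at -0.53. AT3G62820 stood at 0.59 in sfr6-3 and -0.73 in sfr6-2, the same signs as AT5G62340 with smaller values, and its Col-0 arrays differed by 1.93. The other 3, AT4G25260, AT1G14890 and AT3G47670, lay between -0.15 and 0.03.

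Next come the pectin methylesterases, the enzymes that some of these inhibitors act on. Of 67 listed genes 45 had a probe set and 10 passed the filter, and limma called 0 of the 10 in either direction. With 3.40% of all genes called lower and 1.30% higher, 0 of 10 is near the background. An unadjusted p under 0.05 was found for 1 of the 10, AT5G64640, against 16.9% of all genes. The same count was 6 of 11 for the other inhibitor genes, AT3G47380 among them. It was 3 of 15 for the polygalacturonases besides AT1G48100 and 5 of 10 for the pectate lyases. The largest combined differences were 0.95 for AT5G64640, -0.59 for AT3G43270, -0.45 for AT3G49220 and 0.21 for AT5G09760. The Col-0 values of AT5G64640 lay under the filter level, at 5.84 in the sfr6-3 experiment and 6.17 in the sfr6-2 experiment. With dim values set to that level its combined difference was 0.50, smaller in size than that of AT3G43270, which stayed at -0.59. AT5G64640 stood at 0.65 in sfr6-3 and 1.26 in sfr6-2. In the same order AT3G43270 stood at -0.13 and -1.05, AT3G49220 at 0.08 and -0.99, and AT5G09760 at 0.05 and 0.38. The annotated genes PMEPCRF at 0.06 and ATPMEPCRB at -0.11 lay near 0. The list median was -0.14, against 0.10 over all genes.

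**Figure D5:**
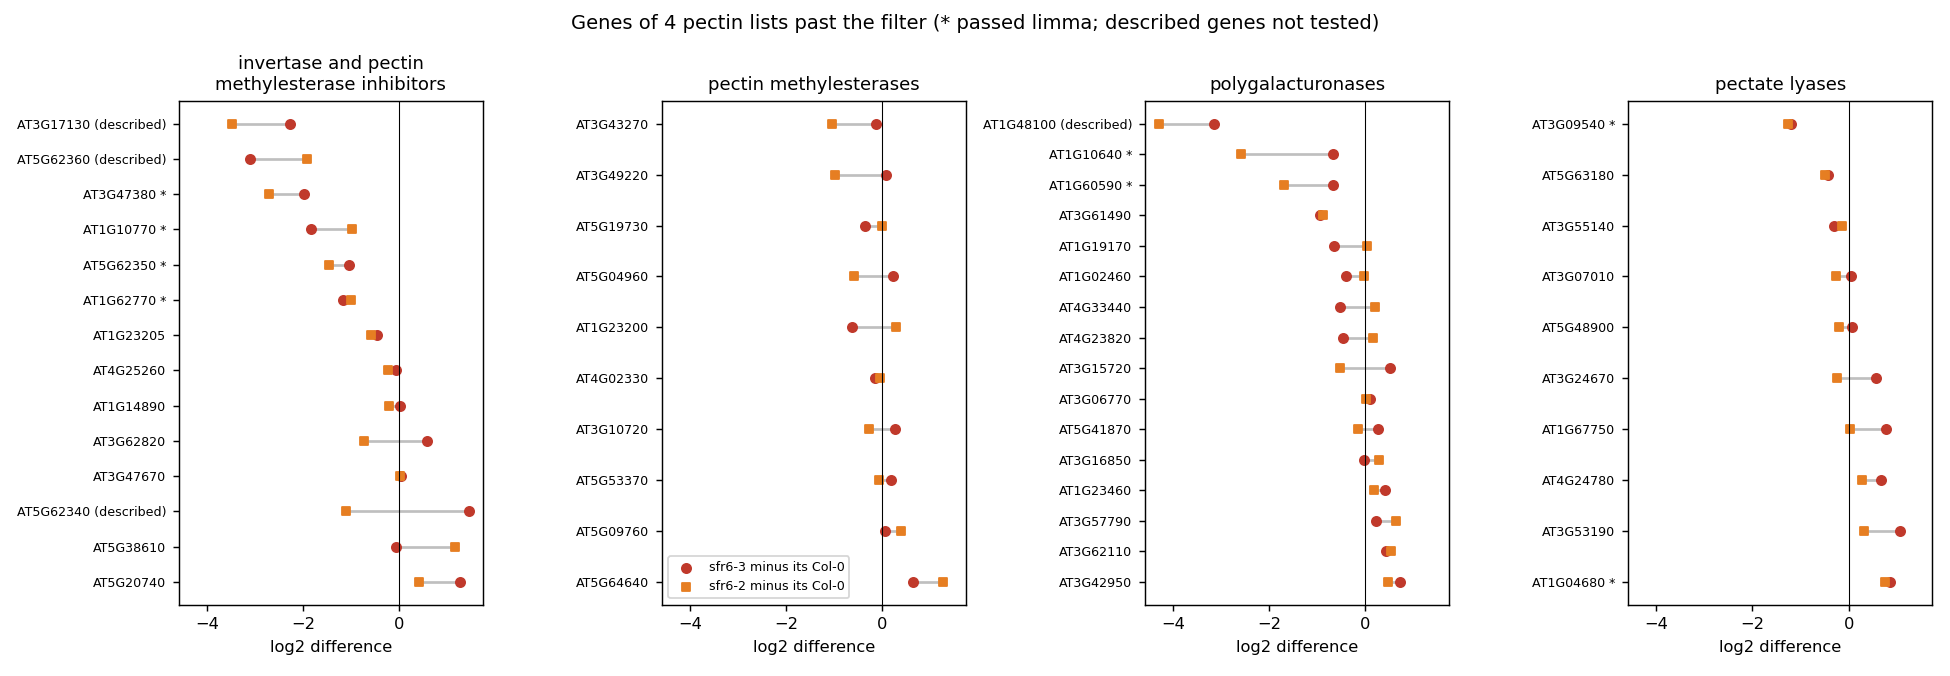
Log2 difference from its own Col-0 of sfr6-3 (circles) and sfr6-2 (squares) for each gene of 4 pectin lists that passed the filter, ordered by combined difference, with a star where limma passed. The inhibitor list holds 4 starred genes on the lower side, among them AT3G47380, which entered the test through its Col-0 values, and the methylesterase list holds none.

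Of the polygalacturonases, 65 genes were listed, 45 had a probe set and 16 passed the filter. Besides AT1G48100, which was not tested, limma called 2 of 15 lower and 0 higher, against 3.40% and 1.30% of all genes. AT1G10640 read 6.94 in sfr6-3 and 6.21 in sfr6-2, against 7.62 in Col-0 of the sfr6-3 experiment and 8.79 in Col-0 of the sfr6-2 experiment, and fell by 1.63 (SE 0.36, limma adjusted p = 0.0111). The groups did not overlap, but most of the difference was in sfr6-2, at -2.58, with -0.68 in sfr6-3. The sfr6-2 value lay under the filter level of 6.46, and with dim values set to that level the combined difference was -1.51. It stood at -1.05 when Col-0 of the sfr6-2 experiment, and with it the experiment block, was left out. The call ended under 4 alternatives that kept the block, with an adjusted p of up to 0.192.

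AT1G60590 read 10.21 in sfr6-3 and 7.60 in sfr6-2, against 10.90 in Col-0 of the sfr6-3 experiment and 9.29 in Col-0 of the sfr6-2 experiment, and fell by 1.19 within experiments (SE 0.25, limma adjusted p = 0.00688). Here the groups overlapped, since both arrays of the sfr6-3 experiment were higher. Within experiments the difference was -0.68 in sfr6-3 and -1.69 in sfr6-2, while from the mean of both Col-0 arrays it was 0.12 in sfr6-3 and -2.50 in sfr6-2. The mean of both mutants was -0.39 from Col-0 of the sfr6-2 experiment and -1.99 from Col-0 of the sfr6-3 experiment. Its call also ended under 4 alternatives that kept the block, with an adjusted p of up to 0.0825. AT3G61490 at -0.91 and AT3G42950 at 0.59 did not pass. The median of the 15 was -0.02.

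Of the pectate lyases, which cut de-esterified pectin by elimination, 10 of 26 listed genes passed the filter, and limma called 1 lower and 1 higher, against 3.40% and 1.30% of all genes. AT3G09540 read 7.73 in sfr6-3 and 8.86 in sfr6-2, against 8.92 in Col-0 of the sfr6-3 experiment and 10.12 in Col-0 of the sfr6-2 experiment. It fell by 1.22 (SE 0.23, limma adjusted p = 0.00241), with like differences of -1.19 in sfr6-3 and -1.26 in sfr6-2. From the mean of both Col-0 arrays sfr6-2 differed by -0.66, and the mean of both mutants differed from Col-0 of the sfr6-3 experiment by -0.62.

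AT1G04680 was the 1 pectin gene called higher. It read 11.06 in sfr6-3 and 11.27 in sfr6-2, against 10.20 in Col-0 of the sfr6-3 experiment and 10.51 in Col-0 of the sfr6-2 experiment, with both mutants above both Col-0 arrays, and rose by 0.81 (SE 0.21, limma adjusted p = 0.0277). The call ended under 5 alternatives that kept the block, with an adjusted p of up to 0.137. AT3G53190 at 0.70 and AT4G24780 at 0.49 did not pass.

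In the remaining 4 pectin lists limma called 0 of 9 genes, where 3.40% of all genes were called lower and 1.30% higher. An unadjusted p under 0.05 was found for 3 of the 9, against 16.9% of all genes. Of the pectin acetylesterases 4 of 12 passed the filter, with AT1G57590 at 0.41, AT3G05910 at 0.07, AT5G26670 at 0.05 and AT3G09410 at -0.00011. Of the rhamnogalacturonan lyases 1 of 7 did, AT1G09910 at 0.09. Of 25 genes of pectin synthesis 2 were measured, AT3G49720 at 0.73 (limma adjusted p = 0.051) and GAUT15, of the galacturonosyltransferase family, at -0.61. Of 9 genes of pectin sensing and polygalacturonase inhibition 2 were measured, the receptor kinase genes THE1 at 0.53 and FER at 0.35.

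Over all 8 lists, 55 pectin genes besides the described ones passed the filter, and limma called 7 lower and 1 higher. That is 12.7% and 1.82% of them, against 3.40% and 1.30% of all genes, and 6 of the 7 are left without AT3G47380. All 108 other pectin genes with a probe set were under the filter level on average, among them 35 of the 45 methylesterases. The calls rest on the experiment block, which leaves 1 residual degree of freedom: without it limma called 0 pectin genes. With an array left out the block could not be kept, for want of residual degrees of freedom, and limma again called 0. An unadjusted p under 0.05 was found for 18 of the 55 with the block, AT3G47380 and AT5G64640 among them (32.7%, against 16.9% of all genes). Without the block it was found for 10 (18.2%, against 5.33%).

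Likeness of pattern was measured as the Euclidean distance between log2 values over the 4 arrays, after each gene was centred on its own mean. For AT1G48100 the nearest of all genes were AT1G68500 at 0.46, AT3G17130 at 0.87 and AT1G16850 at 1.19. For AT3G17130 they were AT1G21790 at 0.69, SERPIN1, a protease inhibitor gene, at 0.74, and AT1G68500 at 0.77. For AT5G62360 they were COR15A, a chloroplast cold-protection gene, at 0.72, AT4G30460 at 0.85 and the dehydrin gene LTI30 at 0.86.

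AT5G62340 lay among other genes. Its nearest were AT1G31850 at 0.21, AT3G50640 at 0.40 and AT4G29440 at 0.53, each above Col-0 in sfr6-3 and below it in sfr6-2. AT1G31850 read 8.79 in sfr6-3 and 8.35 in sfr6-2, against 7.59 in Col-0 of the sfr6-3 experiment and 9.33 in Col-0 of the sfr6-2 experiment. Within the set, AT5G62340 was 3.99 from AT1G48100, 3.19 from AT3G17130 and 3.40 from AT5G62360, while the other 3 were 0.87 to 1.75 apart. With 4 arrays, a small distance says that values ran alike here and nothing more.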

How the data were processed

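Total RNA of 4 seedling samples was hybridised to 1 single-colour Affymetrix array each. The deposited values are log2 expression values per probe set, made by the authors with MAS5 in affy 1.36.1, per the submitters' processing notes. Each array's mean, trimmed by 2% at each end, was 500 on the linear scale, and no further normalization was applied. Detection calls were not used here.

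Of 22810 probe sets, 64 controls were left out, 13513 named 1 gene, 503 several and 8730 none here. Names were updated through the TAIR10.1 gene table for 13436 probe sets. Each gene was represented by its highest probe set, and kept when its mean reached the 40th percentile, 6.46. limma 3.58.1 in R 4.3.3 (lmFit, eBayes with trend) was fitted to all 7204 genes with experiment as a block, and p-values were adjusted by Benjamini-Hochberg over all of them at 0.05. The block comes from the design, in which each mutant was treated beside its own wild type. The alleles count as replicates, and 17.51 prior degrees of freedom were added to 1 residual one, so p-values measure spread between these arrays, mostly pooled over genes. The number of arrays limits the precision.

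The described genes and the 8 pectin lists of 290 genes were chosen with earlier results of these data known. Lists came from general knowledge of the families, since the tables used here give no product names. Besides the described genes, up to 4 genes per list with the largest absolute combined difference, every called gene, direct neighbours and the 3 nearest genes by pattern were named. The other inhibitor genes were named after their values were seen, as were PMEPCRF and ATPMEPCRB. Alternatives were other normalizations, filters, a value added before logs, raised dim values, other fits and left-out arrays. No sequences were used.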

Additional observations from a re-analysis of the deposited data

Results flagged for a closer look

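AT5G62340 was picked out because the alleles differed from their own Col-0 arrays in opposite directions, each by at least 2-fold. The difference was -1.10 in sfr6-2 and 1.46 in sfr6-3, so that the first minus the second was -2.56 on the log2 scale. With 1 array per line in each experiment this contrast between the alleles was not tested. Its Col-0 arrays differed by 1.89, and with the wild types exchanged between experiments the values were 0.78 in sfr6-2 and -0.43 in sfr6-3.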

How the results depend on the processing

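The mean differences of AT1G48100, AT3G17130 and AT5G62360 stayed below 0 under every alternative run, and moved by less than the SD of the alleles except when an array was left out. Changing the filter, raising dim values, dropping the block, using all probe sets or exchanging wild types could not alter these means. The genes were also chosen on these differences, so nothing is read from their staying below 0. Leaving out an array also dropped the experiment block, which could not be fitted to 3 arrays with an error left, so each remaining array was set against all of the other genotype. This gave -4.53 to -2.92 for AT1G48100, -3.79 to -1.96 for AT3G17130, -3.56 to -1.46 for AT5G62360 and -0.77 to 1.12 for AT5G62340, which turned below 0 without sfr6-3 or without Col-0 of that experiment. With wild types exchanged, AT5G62340 turned to -0.43 in sfr6-3 and 0.78 in sfr6-2. The 7 lower and 1 higher calls among the other pectin genes became 4 and 0 after median centring, 2 and 0 without the filter and also with the filter at the 60th percentile. They were 0 and 0 without the replicate block, which is the experiment term here, and 0 and 0 without any single array, which lack the block as well. No other pectin gene passed as higher after cyclic loess or without the variance trend, and 2 did with dim values raised, AT3G49720 besides AT1G04680. By size alone, 3 of the 55 other pectin genes were at least 2-fold lower in both experiments and 0 higher, against 1.60% and 0.292% of all genes. At 1.5-fold, 8 were lower and 2 higher, and nothing is read from these counts, since the share over all genes was not taken. Both counts of lower genes include AT3G47380, which passed the filter through its Col-0 values. The 2 higher genes at 1.5-fold include AT5G64640, which passed the filter through its mutant values. AT3G09540 kept its call under all alternatives that retained the block, those of AT1G10770 and AT5G62350 ended without the filter, and that of AT1G62770 without it and after median centring. The filter at the 60th percentile removed AT3G47380, AT1G10770, AT1G62770 and AT1G10640 before the test, so they were not tested there. Of the called genes still tested with that filter, AT1G60590 and AT1G04680 lost their calls. Over all genes, 245 lower and 94 higher calls became 158 and 14 after median centring, 101 and 13 without the filter, 136 and 14 with the stricter filter, 140 and 30 without the trend, and 0 and 0 without the block or any array. Higher calls numbered 40 after quantile normalization and also with the 20th percentile added, and 17 after cyclic loess. Cyclic loess moved the median gene by -0.10. AT1G60590, called lower, ranged from -2.50 to 0.12 over the left-out arrays. Uncalled values near 0 changed sign: AT3G17120 was -0.0129 after quantile normalization, -0.0531 after cyclic loess and -0.00841 after median centring, AT5G26670 -0.0399, -0.0904 and -0.0454, AT1G09910 -0.0443 after cyclic loess and AT3G05910 -0.0209 after median centring. Over left-out arrays they spanned -0.63 to 0.79 for AT3G17120, -0.17 to 0.26 for AT5G26670, -0.0683 to 0.25 for AT1G09910, -0.0444 to 0.18 for AT3G05910, -0.25 to 0.25 for AT3G09410 and -1.07 to 0.17 for AT3G49220. The causes were not tested. Some alternatives hold fewer samples or genes, and the one without the filter holds more genes. Dim probe sets limit the values under 6.46.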
